A study of Homo sapiens with 18 samples.

Results

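Foregut endoderm that had received retinoic acid (RA) followed by CHIR99021 with BMP4 was compared with untreated foregut endoderm of the same day. All cells were wild-type H1, a human embryonic stem cell line, differentiated in culture to foregut endoderm, the tissue that gives rise to pharynx, thyroid, lung, oesophagus, liver and pancreas. In the treated group all-trans RA was added at 2 µM for 24 h (day 5 to day 6), and CHIR99021 at 2 µM together with BMP4 at 50 ng/mL was added for the 72 h that followed (day 6 to day 9). The untreated group was differentiated to day 9 without these agents. RNA of each group was sequenced at day 9 in 3 libraries, chosen by their labels, so the comparison uses 6 of the 18 libraries of the series. The treated group is called the full sequence below. It was also set beside RA alone at day 9 (3 libraries, 2 µM for 24 h) and CHIR99021 with BMP4 alone at day 9 (3 libraries, the same doses for 72 h). Day 6 libraries, untreated or at the end of the 24 h of RA (3 each), are used for levels only. The labels state that CHIR99021 and BMP4 served to mimic signals that induce respiratory fate. Whether the libraries of a group came from separate cultures is not said there. The p-values thus measure only how far these libraries spread, which may be technical.

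RA is a vitamin A derivative that binds nuclear receptors (RAR and RXR) at DNA response elements and is known for giving foregut its posterior, HOX-expressing character and for making it competent to form lung. CHIR99021 inhibits the kinase GSK3 and so activates canonical Wnt signalling through beta-catenin, and BMP4 acts through SMAD1, SMAD5 and SMAD9. In the embryo, mesenchymal Wnt and BMP signals induce NKX2-1, the transcription factor that marks the first lung progenitors, in ventral foregut, while SOX2 marks the dorsal foregut that becomes oesophagus.

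Totals ran from 5.79 to 25.37 M counts per library (M, 1000000). Across genes, the median SD of log2 CPM (counts per M counts) between libraries was 0.152 in the untreated group and 0.101 in the full-sequence group. The untreated and treated libraries also differ in the reads of a set of genes, mostly pseudogenes, a difference called read kind below. Read kind was inferred from the counts alone, and its cause was not tested. Among 13723 genes above 2 CPM on average, 56 separated untreated from treated libraries by a factor of at least 10. Untreated day 6 libraries 1 and 3, which lay between, were left out of this rule. Of the 56, 53 (94.6%) were pseudogenes, against 3.65% of the 13723. The summed CPM of the genes higher in treated libraries, and of those higher in untreated libraries, was each divided by its mean where it was high. On that scale the former made up 98 to 98.1% of the total in the full-sequence libraries and 0.966 to 1.72% in the untreated day 9 libraries. The genes were chosen on these same libraries, so these shares follow from the choice. Read kind and treatment cannot be told apart in this comparison. The comparisons with RA alone and with CHIR99021 and BMP4 alone set treated libraries against treated libraries. Summed, the genes higher in treated libraries stood at 786 to 850 CPM with the full sequence and 457 to 586 CPM with RA alone. With CHIR99021 and BMP4 alone the sum was 1040 to 1120 CPM. With read kind as a covariate, which only untreated day 6 libraries 1 and 3 (22.5% and 38.8%) allow to be estimated, 473 genes were called in place of 8786. Below, a gene said to hold with the covariate was called in the same direction in that fit as well. The other genes named as risen or fallen were not.

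Of 15531 genes tested with edgeR's quasi-likelihood test, 8786 differed between the full sequence and untreated libraries at a Benjamini-Hochberg adjusted p under 0.05, which is 56.6% of those tested. Of these, 4344 (28%) were higher and 4442 (28.6%) lower. At 2-fold or more, 2804 genes differed (18.1%), of which 1117 (7.19%) were higher and 1687 (10.9%) lower. The split into higher and lower depends on the scaling. The higher share of called genes was 49.4% here, 59.9% when counts were scaled by library totals alone, and 77.6% by limma on log2(TPM + 1), where the median of all genes moved from -0.004 to 0.278 (log2). In this bulk RNA, fewer cells of a type and less RNA per cell cannot be told apart. Lists of genes are described below by the members that rose or fell, to be read against those 28% and 28.6%. A list member enters the test only with enough counts in at least 1 of the 6 groups.

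The 4 genes that mark the comparison moved in different directions: NKX2-1 and SHH rose, FOXE1 and OTX2 fell. NKX2-1 lies on chromosome 14 (36516399 to 36519556, GRCh38 as in the deposited table). It stood at 1.04, 1.53 and 0.864 CPM in the untreated libraries and at 81.3, 86.7 and 69.7 CPM with the full sequence. The groups did not overlap, and the 71.4-fold rise (log2 6.16, SE 0.2) had an adjusted p of 9.9e-17. RA alone gave 0.177 ± 0.163 CPM (SD, n = 3) and CHIR99021 with BMP4 alone 10.7 ± 2.58 CPM, so the full-sequence libraries were above all other day 9 groups (adjusted p = 1.7e-17 and 8.3e-14). With the read-kind covariate the rise was 5.59 (log2), adjusted p = 0.36. SFTA3, which lies beside NKX2-1 on the same chromosome (36473289 to 36513785), had 3 counts in the untreated group and 177 with the full sequence, a ratio of 56.6 (95% counting interval 19 to 277). Reads of this pair may be shared, so SFTA3 is uncertain.

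SHH encodes the Hedgehog ligand of ventral foregut epithelium (chromosome 7, 155799980 to 155809163). Its levels were 87.6, 55 and 59.1 CPM untreated and 489, 500 and 558 CPM with the full sequence. The rise was 7.46-fold (log2 2.9, SE 0.48, adjusted p = 0.00018). Neither partial treatment raised it: RA alone gave 33.8 ± 14.5 CPM (adjusted p = 0.085 against untreated) and CHIR99021 with BMP4 alone 25.4 ± 19.6 CPM (adjusted p = 0.03, lower). FOXE1 (chromosome 9, 97853226 to 97856717) is a thyroid and pharyngeal transcription factor. It fell from 304, 305 and 278 CPM to 27.1, 31.1 and 36.2 CPM, 9.54-fold (log2 -3.25, SE 0.48, adjusted p = 7.5e-05). RA alone (19 ± 19.4 CPM) and CHIR99021 with BMP4 alone (19.1 ± 11.5 CPM) also lay below untreated (adjusted p = 1.7e-05 and 2.9e-05), and their differences from the full sequence did not pass the test (adjusted p = 0.21 and 0.25). OTX2, an anterior homeobox gene (chromosome 14, 56799905 to 56805667), fell from 223, 185 and 157 CPM to 27.5, 35.8 and 25.2 CPM. That is 6.42-fold lower (log2 -2.68, SE 0.21, adjusted p = 6.2e-08). It stood at 83.9 ± 26.8 CPM with RA alone and at 324 ± 30.4 CPM with CHIR99021 and BMP4 alone, and the full-sequence level was below each of these (adjusted p = 2e-05 and 7.6e-09).

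**Figure D1:**
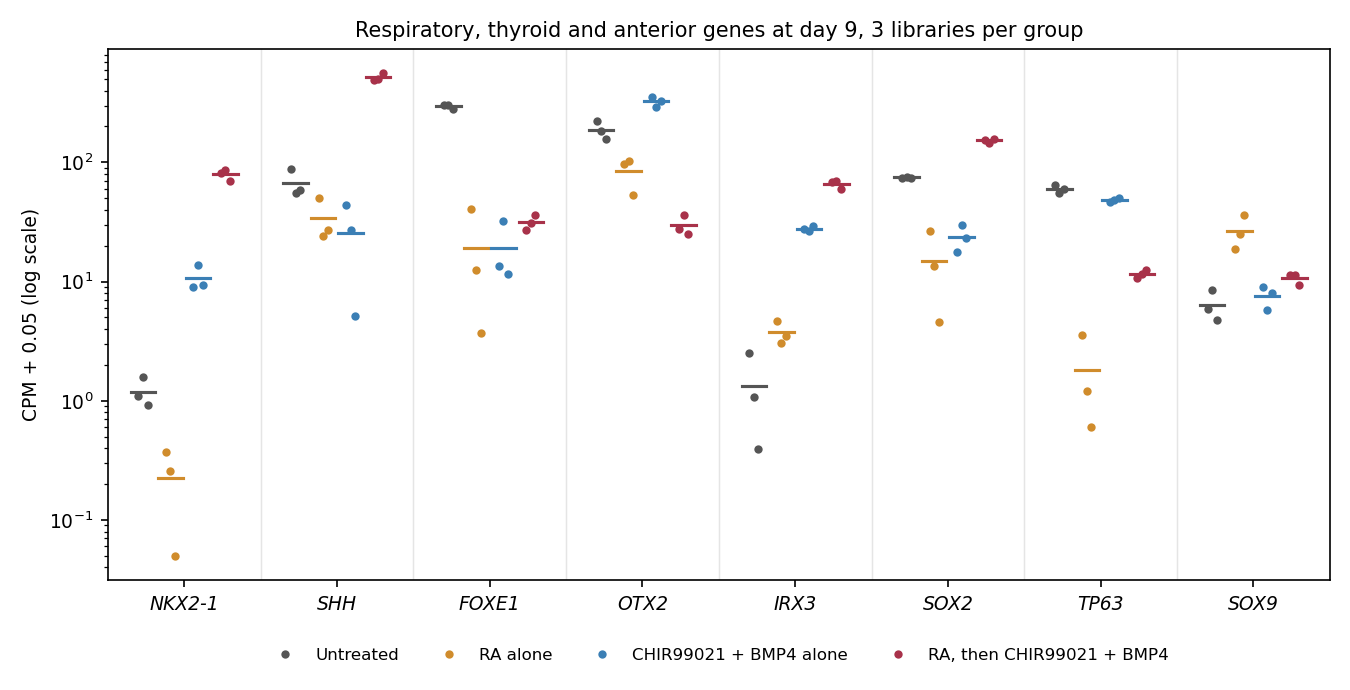
Expression of NKX2-1, SHH, FOXE1, OTX2, IRX3, SOX2, TP63 and SOX9 by library in the 4 day 9 groups. The y axis is CPM + 0.05 on a log scale, points are libraries and bars are group means. The 3 full-sequence libraries sit at 69.7 to 86.7 CPM for NKX2-1 against 0.864 to 1.53 CPM untreated, while OTX2 is lower with the full sequence than in any other group.

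Of 22 genes listed for respiratory progenitors 20 were tested, of which 11 rose and 6 fell (median log2 change 0.83, against -0.004 over all genes). Summed over the list, the level went from 1070 to 1190 CPM untreated to 1230 to 1300 CPM. IRX3, an Iroquois homeobox gene, rose from 2.45, 1.02 and 0.346 CPM to 69, 69.4 and 59.3 CPM (36.6-fold, SE of log2 0.22, adjusted p = 9e-14). Its level was 3.71 CPM with RA alone and 27.7 CPM with CHIR99021 and BMP4 alone. IRX5 rose 11.7-fold, from 2.42 to 29.4 CPM, and IRX2 rose 2.32-fold, from 25.4 to 57.1 CPM. IRX1 (8.24 and 9.38 CPM, adjusted p = 0.52) did not pass the test. IRX3 and IRX5 held with the covariate.

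FOXA1 and FOXA2, the pioneer factors of gut endoderm, were 6.31-fold and 4.96-fold higher (35.4 ± 1.07 to 224 ± 5.5 CPM and 34.1 ± 2.96 to 171 ± 3.13 CPM). FOXA1 held with the covariate. RA alone gave 260 CPM of FOXA1 and 104 CPM of FOXA2, CHIR99021 with BMP4 alone 29.5 and 18.9 CPM. FOXP1, a lung epithelial repressor, rose 1.83-fold, and SOX9, a gene of distal lung tips, rose from 6.35 to 10.7 CPM (1.73-fold, adjusted p = 0.022), a call that was lost when any of 4 libraries (untreated 1 or 3, full sequence 1 or 2) was left out. The gene that encodes carboxypeptidase M (symbol CPM), used as a surface marker of lung progenitors, rose from 1.37, 0.681 and 1.73 to 102, 105 and 73.6 counts per M. The rise was 71.3-fold, adjusted p = 1.4e-09, with mean levels of 10 counts per M with RA alone and 2.74 with CHIR99021 and BMP4 alone. Against these rises, TBX3 fell from 206 ± 21.7 to 35.2 ± 2.79 CPM (5.91-fold), while RA alone (245 CPM) and CHIR99021 with BMP4 alone (240 CPM) did not pass the test against untreated. ETV5, an FGF-responsive factor of lung tips, fell 5.27-fold, from 32.7 to 5.77 CPM. ID2, a marker of the same tips, fell 1.44-fold, from 170 to 119 CPM. It held with the covariate and was not called by limma on log2(TPM + 1) (log2 -0.19, adjusted p = 0.21).

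Of the genes of maturing lung and airway, those of secreted products were nearly absent: SFTPB, SFTPC, SCGB3A2, SCGB1A1, MUC5AC and MUC5B had 0 or 1 count in the untreated and in the full-sequence group. Of 16 listed genes 6 were tested, of which 2 rose and 3 fell. FOXJ1, the factor of multiciliated cells, rose 2.76-fold, from 8.78 to 24.7 CPM. CFTR, the chloride channel, fell 8.87-fold, from 74.5 to 8.73 CPM, and ABCA3, a lipid transporter of type 2 cells, fell 3.51-fold. AGER, a receptor abundant in type 1 cells, rose 1.39-fold, from 27.9 to 39.6 CPM (adjusted p = 0.011), and changed sign with the covariate (log2 -0.38, not called). Of the respiratory mesenchyme genes tested, none of 6 rose. FGF10, the mesenchymal ligand of lung budding, fell 5.38-fold, from 9.41 to 1.51 CPM, and BARX1 went from 136 counts to 3 (47.3-fold lower, 95% counting interval 15.8 to 232). TBX4, TBX5, WNT2 and FOXF1, too low to be tested, had 0, 0, 4 and 3 counts over the untreated group and 0, 13, 0 and 9 over the full-sequence group. With no filter on low counts 1 gene of this list rose.

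NKX2-1 is also a thyroid gene, so the thyroid list was read beside it. PAX8 had 0 and 1 count in the untreated and full-sequence groups, TG 9 and 7, and TSHR 1 and 0. HHEX, a factor of thyroid and liver buds, fell 2.13-fold, from 34.8 to 16.4 CPM (adjusted p = 0.0072), and was 245 CPM with RA alone. The thyroid list summed to 319 to 340 CPM untreated and 45.8 to 57.2 CPM with the full sequence, most of it FOXE1. Of 5 tested members 2 fell (FOXE1 and HHEX), GLIS3 did not pass the test (adjusted p = 0.6) and 2 rose from very low counts. DUOX2, an oxidase of hormone synthesis, went from 12 to 42 counts (3.37-fold, adjusted p = 0.0091), and DIO1, a deiodinase, from 0 to 24 counts (at least 7.67-fold higher).

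Pharyngeal endoderm genes mostly fell: of 16 tested, 10 fell and 2 rose (median log2 change -2.71), and their sum went from 601 to 635 CPM to 206 to 239 CPM. TLX1, a homeobox gene, stood at 137, 135 and 157 CPM untreated and at 0.0478, 0 and 0 CPM with the full sequence. That is 5121 counts against 1, a ratio of 5340 (95% counting interval 958 to 211000), with 1.89 CPM after RA alone and 57.1 CPM after CHIR99021 and BMP4 alone. NKX2-3 went from 34.5, 34.9 and 37.2 CPM to 0 in all 3 libraries, at least 445-fold lower by a floor of 3 counts over the group. NKX2-5, known for heart and pharyngeal pouch, went from 39.5, 33.7 and 35.9 CPM to 0.0478, 0.402 and 0 CPM. TBX1, the pharyngeal gene of the 22q11 deletion, went from 16.2, 26 and 15.6 CPM to 0.287, 0 and 0.276 CPM. VGLL2 fell 710-fold from 85, 105 and 58.2 CPM. Each of these 5 genes had lower levels in every full-sequence library than in any untreated day 9 library. These falls are differences from untreated day 9, not changes over time. In untreated day 6 libraries the mean of TLX1 was 0.301 CPM, of NKX2-3 9.09, of NKX2-5 6.98 and of VGLL2 53.9 CPM. NKX2-3, NKX2-5, TBX1 and VGLL2 held with the covariate. PAX9 fell 9.02-fold (2.77 to 0.263 CPM), FOXI3 7.87-fold (36.5 to 4.68 CPM) and ISL1, a gene of pharynx and second heart field, 7.76-fold (181 to 23.4 CPM). DACH1 rose, from 3.46, 9.02 and 7.26 CPM to 80.1, 86.3 and 72.5 CPM (14.5-fold, adjusted p = 1.4e-11), and held with the covariate.

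Of 12 anterior regulators tested, 6 fell, OTX2 among them, 1 rose and 5 did not pass the test, and the list summed to 306 to 374 CPM untreated and 57.4 to 75.2 CPM with the full sequence. SIX3, a forebrain and anterior endoderm homeobox gene, fell 56.3-fold, from 13.5, 10.2 and 18.5 CPM to 0.239, 0.201 and 0.276 CPM. HESX1 fell 11.7-fold (29.7 to 2.52 CPM) and OTX1 4.79-fold (40.9 to 8.8 CPM). DMBX1 went from 398 counts to 1, a ratio of 415 (95% counting interval 74.1 to 16400), and CER1, which encodes a secreted Nodal, BMP and Wnt antagonist, fell 39.1-fold (47.2 to 1.45 CPM). The one rise was SP8 (11.5-fold, 0.572 to 7.22 CPM). SIX3, OTX1, DMBX1 and SP8 held with the covariate.

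Among oesophageal and basal genes 3 of 10 rose and 5 fell. SOX2 was 74.1, 75.6 and 74.5 CPM untreated and 155, 146 and 158 CPM with the full sequence (2.05-fold, SE of log2 0.32, adjusted p = 0.015). RA alone (14.9 CPM) and CHIR99021 with BMP4 alone (23.6 CPM) both lay below the untreated level (adjusted p = 0.00014 and 0.0018). SOX2 lies on chromosome 3 (181711925 to 181714435). TP63, the basal cell factor, fell from 65.1, 55.7 and 60 CPM to 10.7, 11.6 and 12.5 CPM (5.28-fold, adjusted p = 1.6e-09). NOG, the dorsal foregut BMP antagonist, fell 6.24-fold (12.7 to 2.1 CPM) and held with the covariate. KRT4, a keratin of oesophageal epithelium, had 1 count untreated and 773 with the full sequence, a ratio of 741 (95% counting interval 133 to 29300), while KRT5, KRT13 and KRT14 had 0 counts in both groups. SOX21 rose 151-fold, from 0.281, 0.511 and 0.346 CPM to 53.4, 43.2 and 58.7 CPM, against 3.61 CPM with RA alone and 1.6 CPM with CHIR99021 and BMP4 alone. KRT4 and SOX21 held with the covariate. At day 6 they stood at 5.25 and 18.4 CPM in untreated libraries and at 108 ± 3.35 and 64.1 CPM after RA.

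HOX genes of paralog groups 1 to 5, the 3′ genes that RA switches on in embryonic foregut and hindbrain, were at or near 0 in untreated libraries. Their sum was 0 to 0.864 CPM untreated, 20.5 to 32 CPM with the full sequence and 23.8 to 52 CPM with RA alone. The 7 tested members passed the filter through the groups given RA, so their number is a description only. HOXA3 had 0 counts untreated and 2.77, 2.31 and 3.72 CPM with the full sequence, at least 34.5-fold higher, and HOXA2 was at least 11.5-fold higher. HOXB2 went from 1 count to 232, a ratio of 222 (95% counting interval 39.5 to 8820). Its level of 6.17 CPM was below that of RA alone, 16.8 CPM (adjusted p = 8.3e-05). HOXC4 differed the other way, at 5.06 CPM with the full sequence and 1.95 CPM with RA alone (adjusted p = 0.00047), and was at least 61.7-fold above untreated. HOXB1 had 0 counts untreated and 8 with the full sequence. With the read-kind covariate the fitted differences of HOXB1 and HOXC4 changed sign, neither of them called.

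Levels at the end of RA exposure were higher for some of these genes. At day 6, after 24 h of RA, HOXB1 stood at 140 ± 32.9 CPM and HOXB2 at 55.9 CPM. HOXA4, HOXA5, HOXB5 and HOXD4 had 3 to 5 counts over the full-sequence group and were not tested. Of paralog groups 6 to 13, 1 gene was tested: HOXC13 went from 85 counts to 2 (44.3-fold lower, 95% counting interval 11.9 to 372).

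**Figure D2:**
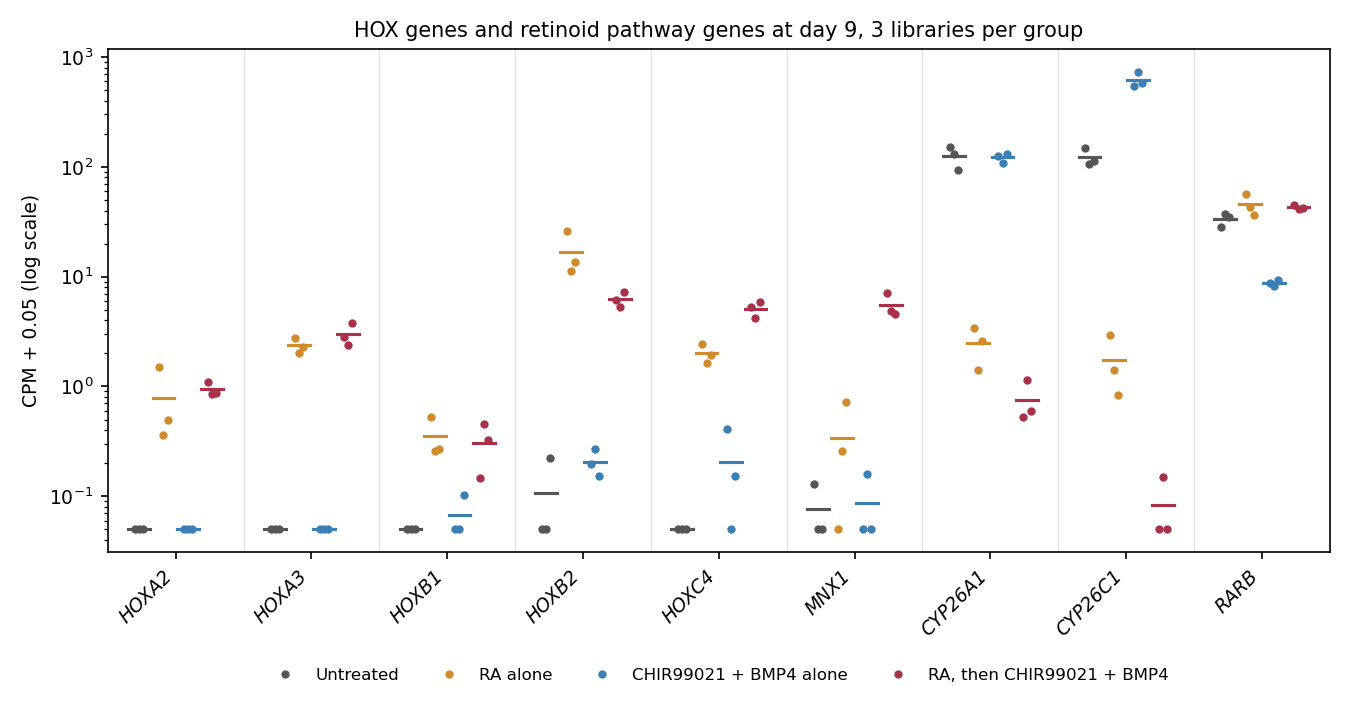
HOX genes, MNX1 and genes of the retinoid pathway by library in the 4 day 9 groups. The y axis is CPM + 0.05 on a log scale, points are libraries and bars are means. HOXA3 is at 0 in the untreated libraries and at 2.31 to 3.72 CPM with the full sequence, while CYP26A1 and CYP26C1 are low in the 2 groups given RA and above 90 CPM untreated.

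CYP26A1 encodes the enzyme that degrades RA and is a direct RA target with a well-known response element near its start. Its promoter is printed because it holds a match to that element. The sequence is from RefSeq (GRCh38.p14, chr10:93073643-93073892, plus strand, the 250 bases before the start), and capitals mark the match to 2 copies of AGTTCA or AGGTCA spaced 5 bases apart, here on the minus strand and 73 bases before the start.
CYP26A1: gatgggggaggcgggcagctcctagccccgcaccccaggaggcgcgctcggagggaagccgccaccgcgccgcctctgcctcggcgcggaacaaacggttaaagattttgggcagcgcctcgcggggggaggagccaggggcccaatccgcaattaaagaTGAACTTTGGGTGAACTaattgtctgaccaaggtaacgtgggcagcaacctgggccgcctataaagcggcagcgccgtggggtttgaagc
Searched on both strands, this spacing occurred in 5 of 35116 RefSeq promoter windows (0.0142%). CYP26A1 fell from 150, 130 and 94.2 CPM untreated to 0.478, 1.1 and 0.551 CPM with the full sequence (188-fold, log2 -7.55, SE 0.32, adjusted p = 4.3e-11). RA alone gave 2.43 CPM and CHIR99021 with BMP4 alone 122 CPM at day 9, whereas RA at day 6 gave 321 ± 37.6 CPM against 68.2 CPM untreated. CYP26A1 was thus above untreated at the end of RA exposure and below it 72 h later. CYP26C1, a related enzyme, went from 148, 105 and 112 CPM to 0, 0.1 and 0 CPM (4941 counts against 1, ratio 5150, 95% counting interval 925 to 204000), with 615 CPM after CHIR99021 and BMP4 alone. Both held with the covariate.

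Of 21 retinoid genes tested, 9 rose and 9 fell. DHRS3, which reduces retinaldehyde and is RA-inducible, rose 3.61-fold (20.1 to 73.1 CPM). LRAT, which esterifies retinol for storage, rose 8.14-fold (1.74 to 12.8 CPM) and held with the covariate. The cytosolic RA-binding proteins CRABP1 and CRABP2 rose 7.37-fold and 3.48-fold (2.99 to 21.1 and 66.1 to 229 CPM). Of the receptors, RARB rose 1.32-fold (33.3 to 42.7 CPM, adjusted p = 0.0062, not called without untreated library 1), RARG fell 2.37-fold, RXRG went from 187 counts to 3 (65-fold lower, 95% counting interval 21.9 to 318), and RARA did not pass the test (adjusted p = 0.68). ALDH1A2, the embryonic RA-synthesising enzyme, fell 8.61-fold (3.96 to 0.445 CPM). STRA6, the retinol uptake receptor, was 52.3 and 45.7 CPM (adjusted p = 0.17).

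Genes that beta-catenin is known to induce as feedback rose more often than they fell: 13 of 19 rose and 4 fell, and the sum went from 678 to 757 CPM to 960 to 979 CPM. AXIN2, the common reporter of the pathway, rose from 17.1, 18.7 and 18.1 CPM to 57.7, 59.8 and 51.7 CPM (3.17-fold, adjusted p = 4.4e-12). CHIR99021 with BMP4 alone gave 58.8 CPM, a difference from the full sequence that did not pass the test (adjusted p = 0.65), and RA alone 11.3 CPM. NKD1, an inhibitor of Dishevelled, rose 4.62-fold (16.6 to 75.3 CPM), LGR5, an R-spondin receptor, 7.13-fold (4.18 to 34.6 CPM) and LEF1, a partner of beta-catenin, 1.65-fold (8.14 to 13.1 CPM). With CHIR99021 and BMP4 alone they stood at 103, 48.4 and 37.7 CPM, above the full sequence for NKD1 and LEF1 (adjusted p = 0.00028 and 7.3e-09) and not passing the test for LGR5 (adjusted p = 0.089). LEF1 held with the covariate. RNF43 and ZNRF3, ligases that remove Frizzled receptors, rose 2.94-fold and 1.98-fold. WIF1, a secreted Wnt inhibitor, went from 2 to 84 counts (ratio 40.3, 95% counting interval 10.8 to 338). NOTUM, an enzyme that inactivates Wnt ligands, did not pass the test (adjusted p = 0.84). Of the 4 that fell, 2 did so by 2-fold or more. They were APCDD1 (5.98-fold lower, 53.3 to 8.9 CPM, 224 CPM with CHIR99021 and BMP4 alone, held with the covariate) and MYC (11.5-fold lower, 24.3 to 2.21 CPM).

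SP5, a transcription factor and direct beta-catenin target, had 1.17, 0 and 0.173 CPM untreated and 14.2, 13.1 and 12 CPM with the full sequence (17.1-fold, adjusted p = 3.7e-06). It was at 2.7 CPM with CHIR99021 and BMP4 alone and 0.23 CPM with RA alone. Its promoter (RefSeq, GRCh38.p14, chr2:170715087-170715336, plus strand) is shown because it holds 3 matches to the TCF/LEF motif CTTTGAT or CTTTGAA, in capitals, at 141, 102 and 77 bases before the start.
SP5: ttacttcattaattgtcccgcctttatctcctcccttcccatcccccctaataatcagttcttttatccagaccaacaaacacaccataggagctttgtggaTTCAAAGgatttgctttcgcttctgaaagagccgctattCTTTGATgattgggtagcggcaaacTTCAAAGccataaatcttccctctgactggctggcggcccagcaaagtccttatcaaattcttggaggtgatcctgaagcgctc
On either strand the motif occurred in 5.94% of all promoter windows of this length and in 3.93% of those of tested genes. RefSeq's table had 11 windows, of 8 of the 13 Wnt feedback genes that rose, and 2 of the 11 held it (18.2%).

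Of 29 Wnt ligands, receptors and modulators tested, 5 rose and 16 fell, and their sum went from 2760 to 2980 CPM to 1520 to 1640 CPM. The receptor FZD5 fell from 1060, 982 and 1040 CPM to 192, 249 and 246 CPM (4.49-fold), was 1100 CPM with RA alone and 118 CPM with CHIR99021 and BMP4 alone, and held with the covariate. FZD1 fell 6.93-fold and FZD7 rose 3.26-fold (80.7 to 271 CPM), and both held. The ligands WNT5A, WNT5B and WNT4 fell 8.62-fold, 16.8-fold and 29.7-fold (79.1 to 8.96, 64.7 to 3.71 and 9.64 to 0.329 CPM). RSPO3, an R-spondin that amplifies Wnt signals, fell 8.62-fold (140 to 16.3 CPM). WNT11 rose 9.81-fold (0.462 to 4.25 CPM) and the secreted inhibitor SFRP5 15.6-fold (0.56 to 8.58 CPM).

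BMP targets were lower with the full sequence although BMP4 had been added for 72 h. Of 19 tested 14 fell and 2 rose (MSX1 and HAND1, each at 1.99 CPM with the full sequence), and 11 were below all 3 other day 9 groups, as were 8.47% of all genes tested. The list summed to 1510 to 1740 CPM untreated, 592 to 677 CPM with the full sequence and 2100 to 2330 CPM with RA alone. With CHIR99021 and BMP4 alone, where BMP4 had also been added, it summed to 1570 to 1890 CPM. BAMBI, a pseudoreceptor that dampens BMP signals, fell from 508, 431 and 538 CPM to 56.4, 66.2 and 54.4 CPM (8.35-fold, adjusted p = 1.2e-07), with 282 CPM after CHIR99021 and BMP4 alone. ID1 and ID3, inhibitors of bHLH factors, fell 2.03-fold and 2.58-fold (201 to 99.2 and 249 to 96.5 CPM). The inhibitory SMAD genes SMAD6 and SMAD7 fell 2.35-fold and 1.6-fold (63.2 to 27.4 and 63.5 to 40 CPM). SMAD9, a signal transducer, fell 2.94-fold (136 to 46.1 CPM) and GATA3 6.79-fold (67.5 to 10.1 CPM). All 7 held with the covariate. MSX2 fell 2.74-fold, from 35.6, 15.3 and 23.3 CPM to 8.66, 11.6 and 8.68 CPM, and lost its call without untreated library 1 (log2 -1.01) and by limma on log2(TPM + 1).

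The promoter of BAMBI (RefSeq, GRCh38.p14, chr10:28677271-28677520, plus strand) is printed as the BMP target with the largest fall among those that hold more than 1 match to GGCGCC, a SMAD1 and SMAD5 GC box. The 3 matches, in capitals, lie 203, 190 and 175 bases before the start.
BAMBI: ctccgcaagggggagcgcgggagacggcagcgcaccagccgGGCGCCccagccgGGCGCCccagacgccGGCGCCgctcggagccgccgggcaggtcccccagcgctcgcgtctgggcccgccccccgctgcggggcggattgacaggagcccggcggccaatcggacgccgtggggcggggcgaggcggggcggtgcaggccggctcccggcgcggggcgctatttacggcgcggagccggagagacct
The box occurred in 16.4% of all promoter windows and 24.2% of those of tested genes. The table had 22 windows, of 13 of the 14 BMP targets that fell, and 8 of the 22 held it (36.4%). Windows of the same gene were counted separately, and GATA3 and BMPER each had more than 1 that held it. These are thus not shares of genes, and the difference between them was not tested.

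Of 24 BMP ligands, receptors and antagonists 8 rose and 9 fell (11 and 4 by limma on log2(TPM + 1)). BMP4 itself fell from 198, 166 and 207 CPM to 38.7, 41.8 and 32.3 CPM (5.04-fold, adjusted p = 2.6e-10) and held with the covariate. RA alone gave 43.8 CPM and CHIR99021 with BMP4 alone 72.1 CPM, so the transcript was below untreated also where the protein had been added. BMP5 rose 6.98-fold (1.3 to 8.22 CPM). The antagonists NBL1 and CHRD rose 6.67-fold and 2.86-fold (11.7 to 81.9 and 4.5 to 13 CPM), while FSTL1 fell 3.45-fold (2460 to 714 CPM). NBL1 and FSTL1 held with the covariate.

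In the Hedgehog pathway the ligands SHH and IHH rose and GLI factors fell. Of 17 tested genes 4 rose and 7 fell, while by limma on log2(TPM + 1) 8 rose and 4 fell. IHH, the second ligand of gut epithelium, rose from 2.29, 0.681 and 1.21 CPM to 37.2, 47.4 and 35.8 CPM (22.1-fold, adjusted p = 5.5e-06), against 16.8 CPM with RA alone. GLI1, the usual transcriptional readout of the pathway, fell 1.97-fold (46.5 to 23.7 CPM, adjusted p = 0.0035) but was not called by limma on log2(TPM + 1) (log2 -0.61, adjusted p = 0.053). PTCH1, the receptor and another readout, was 475 ± 51.6 and 351 ± 13.6 CPM (adjusted p = 0.15), and was called lower when only the 6 libraries were fitted (log2 -0.43, adjusted p = 0.00038). Both were lower with RA alone (5.01 and 100 CPM) and with CHIR99021 and BMP4 alone (14.2 and 207 CPM). GLI2 and GLI3 fell 6.48-fold and 2.2-fold (52.7 to 8.41 and 316 to 143 CPM), and GLI2 held with the covariate. GAS1, a co-receptor, fell 4.15-fold. HHIP, which sequesters ligand, rose 3.9-fold from uneven untreated levels of 0.683, 6.81 and 1.9 CPM to 8.8, 8.74 and 8.41 CPM, and was not called when only the 6 libraries were fitted.

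**Figure D3:**
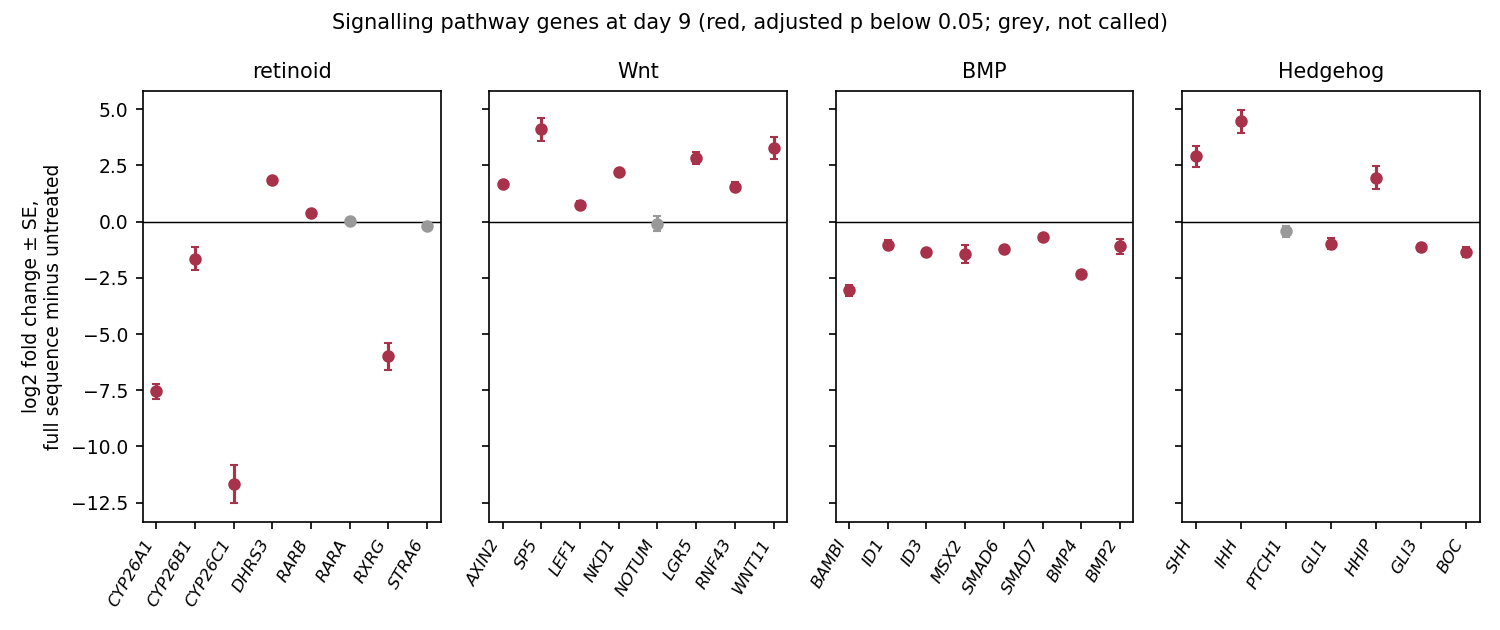
Log2 difference between the full sequence and untreated day 9 (y axis) for genes of the retinoid, Wnt, BMP and Hedgehog pathways, with bars of 1 SE. Red points passed the test and grey points (NOTUM, RARA, STRA6 and PTCH1) did not. CYP26C1 and RXRG had 1 and 3 counts in the full-sequence group, so their fitted values are not limits. Wnt feedback genes such as AXIN2 lie above 0, the BMP targets shown lie below 0.

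FGF feedback genes fell, as 12 of 16 tested were lower and 3 higher (sum 657 to 696 CPM untreated, 475 to 559 CPM with the full sequence). SPRY1 and SPRY4, inhibitors of receptor signalling, fell 5.19-fold and 5.46-fold, and DUSP6, the ERK phosphatase, 2.25-fold. SPRY4 held with the covariate. PHLDA1 rose 9.07-fold from uneven untreated levels of 4.66, 30.6 and 10.5 CPM to 118, 120 and 95.5 CPM. Of ligands and receptors, FGF8 fell 6.7-fold (35.9 to 5.19 CPM), FGF18 38.1-fold (12.3 to 0.286 CPM) and FGFR2, the epithelial receptor of FGF10, 2.33-fold (251 to 107 CPM). FGFR4, an endodermal receptor, rose 7.42-fold (13.6 to 98.5 CPM). FGF8 and FGFR4 held with the covariate.

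Of 15 Nodal and TGF-beta genes 9 fell and 3 rose. TGFB2 rose 3.77-fold (58.3 to 220 CPM) and TGFB1 fell 3.05-fold (33.6 to 11.1 CPM) and held with the covariate. CCN2, a common TGF-beta response, fell 3.56-fold. In the Notch list 5 of 20 rose and 5 fell: the receptor NOTCH1 fell 5.49-fold (116 to 21.5 CPM, held with the covariate) and the ligand DLL1 rose 5.19-fold (7.17 to 40.2 CPM).

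Genes shared by all definitive endoderm mostly rose, 12 of 19 against 5 that fell. GATA6 rose 6.9-fold (9.81 to 71.6 CPM), SOX17 4.77-fold (3.5 to 15.3 CPM) and GATA4 4.55-fold (5.81 to 32.4 CPM). GATA6 and SOX17 held with the covariate. EPCAM, the epithelial adhesion molecule, rose 1.33-fold (272 to 362 CPM), CDH1 did not pass the test (adjusted p = 0.36), and CLDN4 and KRT19 fell 3.97-fold and 1.57-fold, of which KRT19 held with the covariate. RA alone gave 205 CPM of GATA6 and CHIR99021 with BMP4 alone 8.39 CPM.

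Most tested genes of liver, pancreas and intestine rose, many from low levels. Of 17 liver genes tested 13 rose and 1 fell, of 14 pancreas and duodenum genes 8 rose and 1 fell, and of 8 intestine genes 6 rose and 2 fell. Many of these pass the filter through RA alone, where they were highest. HNF4A, the hepatocyte and gut factor, rose 15.2-fold (1.04 to 16.3 CPM) and was 81.9 CPM with RA alone. AFP rose from 0.0402, 0 and 2.07 CPM to 26.9, 31.4 and 29.4 CPM, TTR 8.45-fold (5.06 to 33.3 CPM) and APOB 8.22-fold (4.24 to 32 CPM). FGB, the fibrinogen beta chain, went from 2 to 694 counts (ratio 333, 95% counting interval 91.7 to 2750). ALB, with 12 and 19 counts, was not tested. The liver list summed to 203 to 267 CPM untreated, 239 to 286 CPM with the full sequence and 819 to 974 CPM with RA alone. The other lists fell in sum, pancreas and duodenum from 160 to 215 CPM to 93.1 to 102 CPM, and intestine from 2050 to 2340 CPM to 1230 to 1360 CPM. The largest members there fell: ISL1 (181 to 23.4 CPM) and LIN28A, an RNA-binding protein of immature cells (2190 to 1220 CPM, 1.79-fold). LIN28A made up most of the intestine sum.

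RFX6, an endodermal and islet factor, rose 158-fold, from 7 to 1226 counts. ONECUT1 rose 40.7-fold (0.164 to 10.6 CPM, 94.5 CPM with RA alone). PDX1, the pancreas and duodenum factor, had 0 counts untreated and 0.526, 1.31 and 1.93 CPM with the full sequence, at least 12.1-fold higher, against 36.2 CPM with RA alone. The call of PDX1 was lost when any of 5 libraries (all but full sequence 1) was left out. MNX1, a factor of dorsal pancreas and motor neurons, went from 2 to 227 counts (ratio 109, 95% counting interval 29.8 to 904). It was at 5.45 ± 1.33 CPM with the full sequence, 0.292 CPM with RA alone and 0.0369 CPM with CHIR99021 and BMP4 alone. CDX2, the intestinal factor, had 0 counts untreated and 122 with the full sequence, at least 39-fold higher, and was 36.5 CPM with RA alone against 3.35 CPM. VIL1, a brush border protein, rose 4.15-fold (5.09 to 21.4 CPM).

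Markers of other cell types were read for the whole of each list, and their part in the other results was not tested. Cardiac genes summed to 124 to 136 CPM untreated, 32.9 to 37.9 CPM with the full sequence and 2220 to 2970 CPM with RA alone, with 1 of 21 tested genes risen and 9 fallen. MYH6, the atrial myosin heavy chain, was 0.197 and 0.547 CPM (adjusted p = 0.13) and 723 CPM with RA alone. TNNT2 fell 4.28-fold and TNNC1 6.05-fold. Smooth muscle and mesenchyme genes summed to 6020 to 7690 CPM untreated, 4420 to 4710 CPM with the full sequence and 33800 to 45400 CPM with RA alone. Of 24 tested 6 rose and 11 fell (7 and 7 by limma on log2(TPM + 1)). COL1A2 fell 7.76-fold (511 to 65.9 CPM, held with the covariate), TAGLN 4.31-fold and ACTA2 3.13-fold. PDGFRA rose 14.7-fold, from 1.45, 10.2 and 3.8 CPM to 53.9, 51.5 and 58 CPM, VIM rose 1.93-fold, and DCN, a collagen-binding proteoglycan, went from 1 to 251 counts (ratio 241, 95% counting interval 42.8 to 9540).

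Endothelium and blood genes did not rise in any of 16 cases and 8 fell (145 to 608 CPM untreated, 90.4 to 98.6 CPM with the full sequence). Without untreated library 3, or full-sequence library 1 or 3, 4 or 5 fell, and by limma on log2(TPM + 1) 4 fell and 1 rose. The untreated libraries were uneven here: KDR, an endothelial receptor, was 7.59, 62.5 and 56.5 CPM, and HBB, a globin, 30.3, 7.15 and 358 CPM. LMO2 fell 5.47-fold and FLT1 3.81-fold, and LMO2 held with the covariate. Of 14 neural genes 2 rose and 2 fell (4 and 1 by limma, and 4 rose without untreated library 1). PAX6 had 8 and 1 counts and SOX1 0 and 0. Of 12 neural crest, placode and otic genes 6 fell and 1 rose (3 and 3 by limma): PAX2 fell 78.5-fold (9.05 to 0.0813 CPM) and NR2F1, an RA-responsive nuclear receptor, rose 5.28-fold (4.41 to 25.8 CPM). Of 13 pluripotency genes 5 rose and 4 fell (6 and 1 by limma). POU5F1 went from 27 counts to 0 (at least 9.39-fold lower), NANOG had 14 and 6 counts, and L1TD1 rose 7.19-fold and held with the covariate.

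Cell cycle and metabolic genes moved in both directions. Of 24 cell cycle genes 8 rose and 8 fell (median log2 change -0.04): MKI67 fell 1.5-fold (574 to 383 CPM), TOP2A did not pass the test (adjusted p = 0.82), and MCM4 rose 1.23-fold. By limma on log2(TPM + 1) 13 rose and 4 fell, and without untreated library 3, or full-sequence library 1 or 3, 5 rose. Mitochondrially encoded genes took 6.95 to 8.44% of counts untreated and 6.24 to 6.88% with the full sequence, with 6 of 13 lower and none higher (1 lower and 5 higher by that limma fit). Of 20 genes of the integrated stress and unfolded protein response none rose and 11 fell, among them HSPA5, the main chaperone of the endoplasmic reticulum (1.62-fold), ATF3 (2.84-fold) and TRIB3 (2.43-fold), while by limma on log2(TPM + 1) 4 rose and 4 fell. In cholesterol synthesis 9 of 24 rose and 4 fell (17 and 1 by limma). VLDLR, a lipoprotein receptor, fell 10.8-fold (197 to 18.1 CPM) and held with the covariate. Of 20 glycolysis and hypoxia genes 4 rose and 8 fell (8 and 6 by limma on log2(TPM + 1)): VEGFA rose 1.89-fold (186 to 353 CPM, held with the covariate) and the glucose transporter SLC2A3 fell 2.38-fold (3610 to 1520 CPM). Among imprinted growth genes IGF2 rose 4.48-fold (9.37 to 36.9 CPM, 1220 CPM with RA alone), DLK1 fell 23.8-fold (180 to 7.48 CPM) and MEG3 4.27-fold (225 to 52.6 CPM).

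Matrix and junction genes fell more often than they rose. Of 27 laminins, integrins and basement membrane genes 14 fell and 2 rose (12 and 7 by limma on log2(TPM + 1)). Of the 27, 12 were below all other day 9 groups, as were 8.47% of all genes tested. LAMA1, the embryonic laminin alpha chain, rose 2.04-fold (503 to 1030 CPM), whereas LAMB1 fell 2.59-fold (2200 to 848 CPM, held with the covariate) and NID2, a laminin linker, 7.45-fold (205 to 27.4 CPM). Of 27 cadherins and junction genes 14 fell and 5 rose (11 and 8 by limma). PKP2, a desmosomal plaque protein, fell 4.84-fold (489 to 101 CPM, held with the covariate), CDH6 3.54-fold (420 to 119 CPM) and CLDN10 9-fold (15.8 to 1.66 CPM). Axon guidance genes, many of which also shape epithelia, split evenly, with 9 of 29 risen and 11 fallen. NTN1, a secreted guidance cue, rose from 9.6, 3.57 and 2.25 CPM to 88.8, 81.5 and 95.5 CPM (13.4-fold, adjusted p = 1.6e-07), against 1.75 CPM with RA alone and 1.51 CPM with CHIR99021 and BMP4 alone. At day 6 NTN1 stood at 43 ± 13.3 CPM untreated and 24.8 CPM after RA. Its rise is a difference from untreated day 9, not a change over time. ROBO2, a Slit receptor, rose 6.2-fold (30.7 to 185 CPM), and UNC5C, a netrin receptor, fell 19.5-fold (169 to 8.79 CPM). NTN1 held with the covariate.

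**Figure D4:**
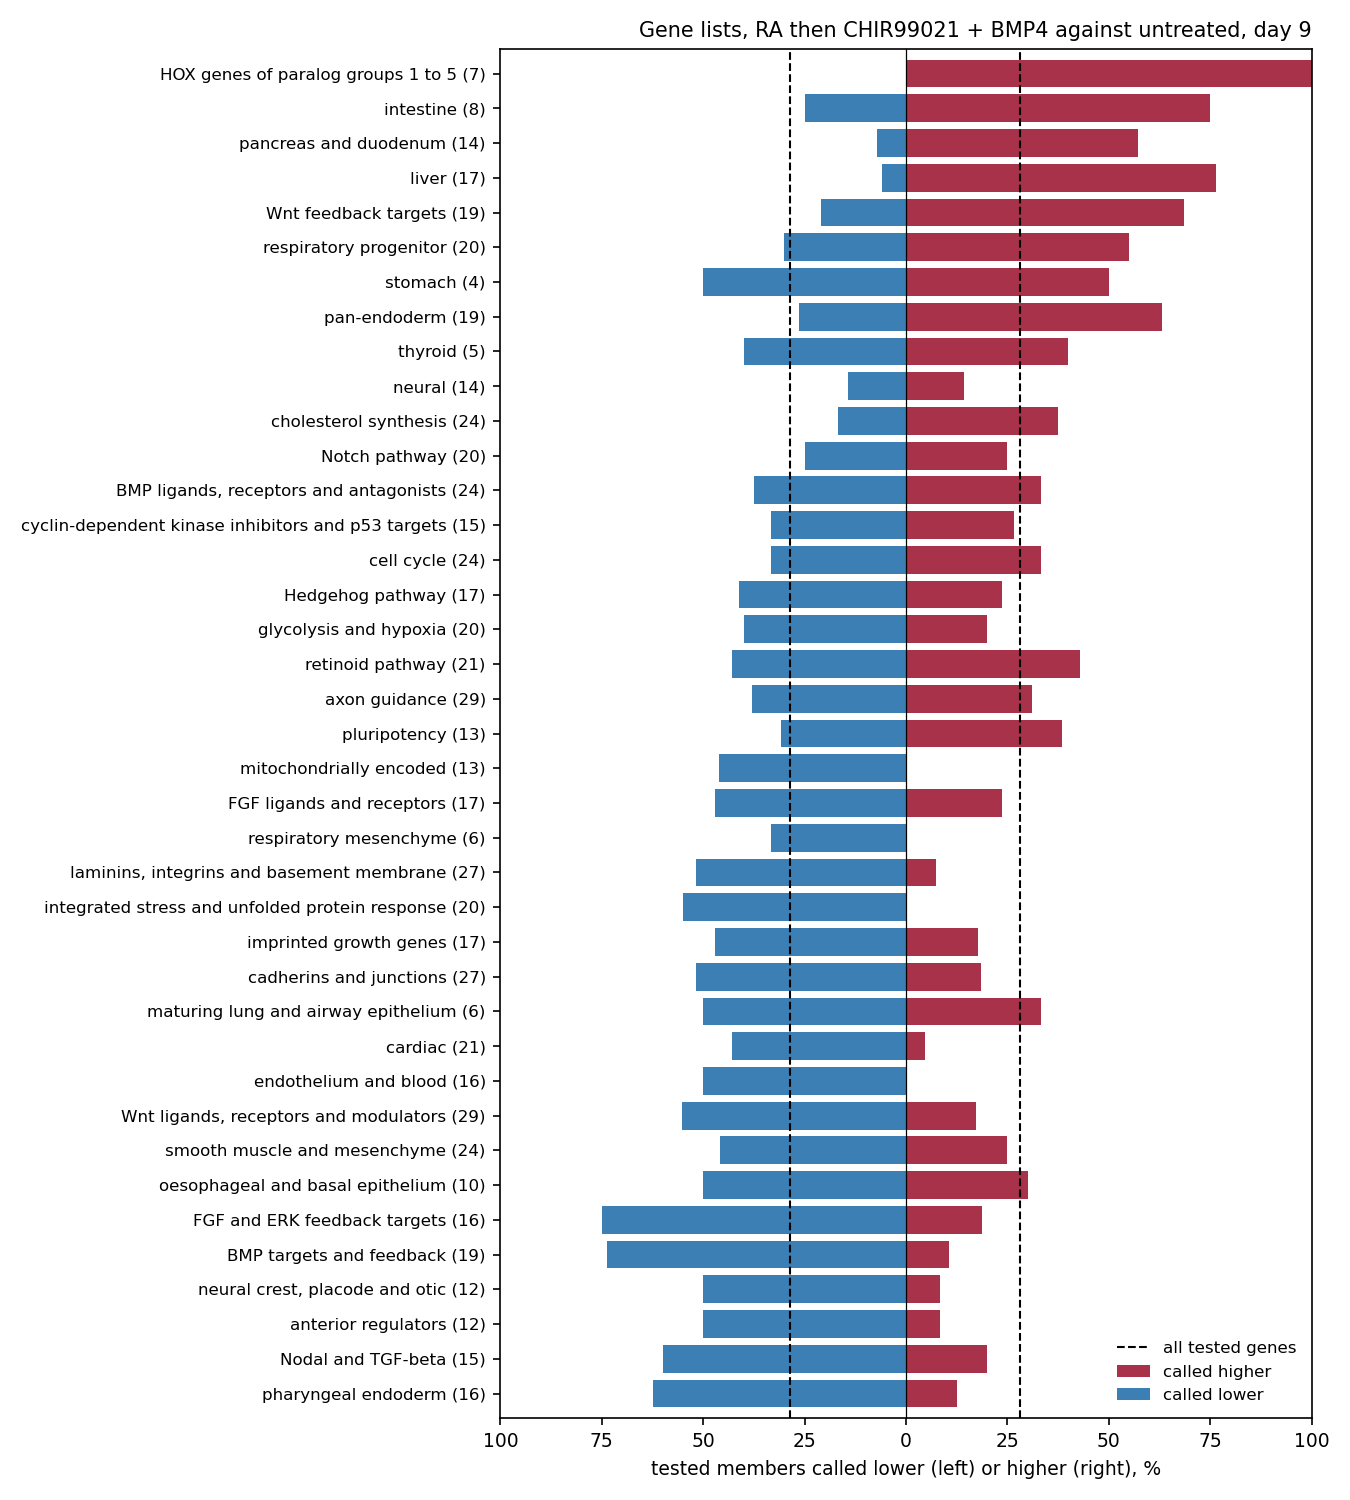
Percent of tested genes of each list called lower (bars to the left) and higher (bars to the right) in the full sequence against untreated day 9, for lists with at least 4 tested members, sorted by the median log2 difference. Dashed lines mark the shares over all tested genes (28.6% lower and 28% higher). HOX genes of groups 1 to 5 and the intestine, pancreas and liver lists are at 1 end, pharyngeal endoderm genes at the other. Members of the former lists passed the filter largely through the groups given RA, so their place against the dashed lines is a description only.

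Ranked by size, where groups did not overlap and the higher one reached 5 CPM or more, the 12 largest called rises were KRT4, HOXC4, FGB, DCN, RFX6, HOXB2, SOX21, MTTP, MNX1, RHBDL3, AFP and NKX2-1. MTTP, which loads lipid onto apolipoprotein B, rose from 0.532 ± 0.348 to 70.6 ± 5.86 CPM (126-fold, adjusted p = 1.5e-10), was 8 CPM with RA alone and 3.56 CPM with CHIR99021 and BMP4 alone, and held with the covariate. At day 6, after 24 h of RA, MTTP stood at 145 ± 20.8 CPM, MNX1 at 39.4 CPM and RFX6 at 43 CPM, above their full-sequence levels at day 9. The rhomboid-like gene RHBDL3 went from 2 to 189 counts (ratio 90.6, 95% counting interval 24.7 to 754). Of the 12 largest falls, TLX1, CYP26C1, NKX2-3, VGLL2, DMBX1 and NKX2-5 are described above. CYSLTR2, a leukotriene receptor, went from 28.2, 19.9 and 42.5 CPM (1066 counts) to 1 count, a ratio of 1110 (95% counting interval 199 to 44000). ANKRD63 fell 367-fold (42.8 to 0.0813 CPM). In untreated day 6 libraries CYSLTR2 and ANKRD63 stood at 0.365 and 0.107 CPM, CYP26C1 and DMBX1 at 181 and 147 CPM. POTEE (3660 counts to 0) and PGAM4 (561 to 2) are among the 56 genes that separate the read kinds and share sequence with near-identical copies, so they are uncertain, although both were called lower with the covariate too.

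The same libraries were set against each partial treatment. The full sequence differed from RA alone in 10004 genes (64.4% of those tested) and from CHIR99021 with BMP4 alone in 6729 (43.3%). Higher than in all 3 other day 9 groups were 1281 genes (8.25%), and lower than in all 3 were 1316 (8.47%). At 2-fold or more in each comparison these counts were 217 (1.4%) and 393 (2.53%). The comparisons share the full-sequence libraries. The 8 genes with the largest smallest difference on the higher side were MNX1, KRT4, SOX21, NTN1, EFCC1, DCN, the carboxypeptidase M gene and MTTP. EFCC1 was 6.95 CPM with the full sequence, 0.335 CPM untreated, 0.251 CPM with RA alone and 0.494 CPM with CHIR99021 and BMP4 alone. On the lower side they were NKX2-5, CYSLTR2, NKX2-3, FIBIN, TLX1, CYP26C1, GPR78 and NKX2-6. FIBIN, a secreted factor of fin and limb buds, was 0.14 CPM with the full sequence, 32.1 CPM untreated, 27.6 CPM with RA alone and 6.98 CPM with CHIR99021 and BMP4 alone. NKX2-6, a pharyngeal homeobox gene, fell 138-fold from 44.9 to 0.286 CPM. GPR78, an orphan receptor, went from 263 to 2 counts (ratio 137, 95% counting interval 37.6 to 1140). EFCC1 and FIBIN held with the covariate.

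**Figure D5:**
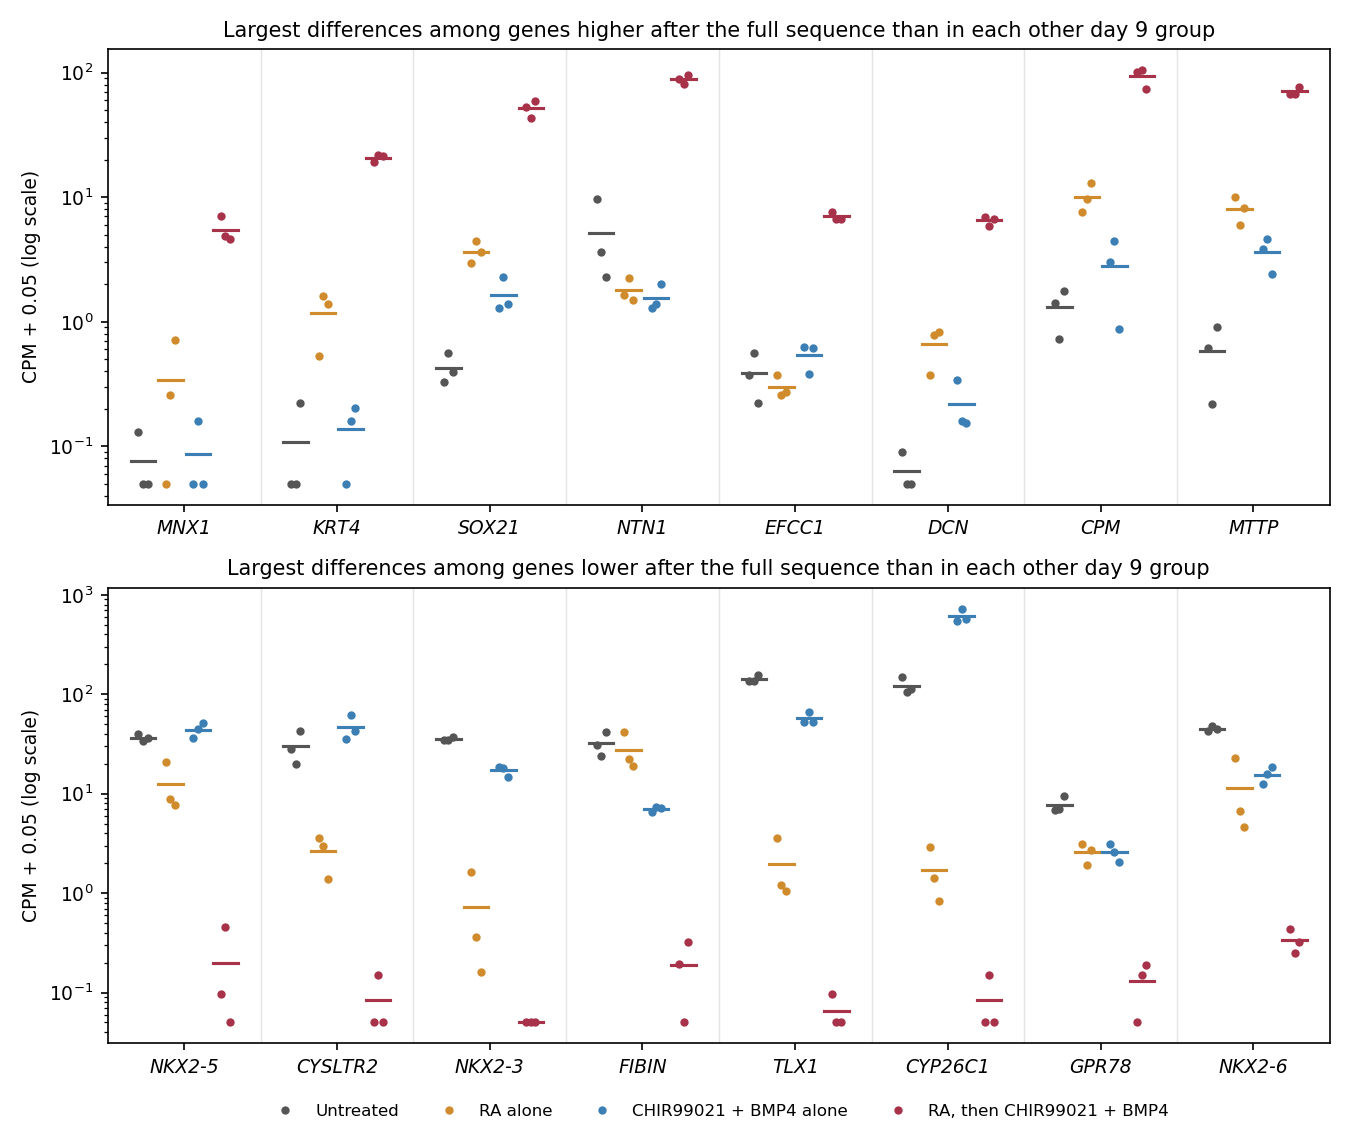
The 8 genes highest and the 8 genes lowest in the full sequence relative to all other day 9 groups, by library. The y axis is CPM + 0.05 on a log scale, points are libraries and bars are means. NTN1 is at 81.5 to 95.5 CPM with the full sequence and below 10 CPM in the other day 9 groups, NKX2-3 at 0 with the full sequence.

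A difference of differences was also tested: whether the change from untreated to the full sequence was the sum (log2) of the changes with RA alone and with CHIR99021 and BMP4 alone. It was not the sum for 8300 of 15531 genes (53.4%), and this test too sets untreated against treated libraries. For NKX2-1 the full sequence lay 5.61 (log2) above that sum (adjusted p = 1.1e-08), for SHH 5.46 above (adjusted p = 3e-05) and for FOXE1 4.87 above (adjusted p = 0.00011). FOXE1 was thus lower with either treatment alone, and the full sequence did not reach the sum of these changes. OTX2 lay 2.28 below the sum, as an interaction of -2.28 (adjusted p = 9.3e-06).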

How the data were processed

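Per the labels' protocols, a NucleoSpin kit was used to extract RNA and a TruSeq stranded mRNA kit to build the libraries. STAR 2.7.9 and GRCh38 are named in the submitters' processing notes. The counting tool, its annotation and its use of strand were not stated (not given in the sources used here). The authors deposited 1 table of raw counts per gene and 1 of TPM. The count table was used for all tests, the deposited TPM for 1 alternative. The 36 rows without a symbol held 0.00102% of counts and were left out.

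All 18 libraries in 6 groups were fitted with edgeR 4.0.16 in R 4.3.3 (TMM scaling, filterByExpr with a minimum count of 10, robust quasi-likelihood test), with Benjamini-Hochberg adjustment across 15531 genes. The fit was also run on simulated data. Far fewer genes were changed there than were called here, so that run cannot show how the fit behaves in this setting. limma 3.58.1 and DESeq2 1.42.0 served as alternatives, and other scalings, filters, library subsets, a replicate block and a read-kind covariate were tried. Genes absent from 1 group were compared with a floor of 3 counts over the group, and counting intervals (95%) cover counting error only. Genes named are the markers, the 12 largest rises and falls of at least 5 CPM, the 8 most different from each other group, and list members (up to 8 of largest fold, others for their role). Some genes the rule names are not reported here. Members and lists were chosen with earlier results of these data known. Promoters are the 250 bases before RefSeq starts.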

Additional observations from a re-analysis of the deposited data

Results flagged for a closer look

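For 18 of 26 genes tested for it by name, the change given by CHIR99021 with BMP4 differed according to whether RA had come first, by the test of that difference itself (edgeR's quasi-likelihood test, Benjamini-Hochberg adjusted over all 15531 genes; 53.4% of all genes were called). Values are log2 differences of differences, above 0 where the full sequence lay above the sum of both single changes. Among respiratory and foregut genes they were 5.61 for NKX2-1 (adjusted p = 1.1e-08), 5.46 for SHH (3e-05), 4.87 for FOXE1 (0.00011), 5.13 for SOX2 (3.1e-06), 3.2 for TP63 (3e-07), 1.67 for FOXA2 (8.6e-05), -2.28 for OTX2 (9.3e-06), -3.36 for PAX9 (6.7e-05) and -1.19 for GATA6 (5.4e-06). Among signalling genes they were 0.6 for AXIN2 (0.0018), 1.22 for BMP4 (6.6e-05), -2.04 for ID1 (2.6e-05), 4.05 for GLI1 (9.3e-07), 3.02 for PTCH1 (9.8e-06), 1.81 for RARB (2.1e-08) and -1.74 for CYP26A1 (0.033). The call of CYP26A1 was lost with the replicate block (adjusted p = 0.056), with no filter on low counts (0.072), and without RA day 9 library 1 or 3 or full-sequence library 1 or 3 (0.11, 0.094, 0.15 and 0.057). HNF4A (-4.46, adjusted p = 5.5e-07) and MYH6 (-11.98, adjusted p = 2.1e-05), markers of liver and of heart, lay below the sum. Among those not called were SFTA3 (4.81, adjusted p = 0.053), IRX3 (0.24, 0.59), HOXB1 (-2, 0.42), LGR5 (0.94, 0.11), MSX2 (-1.23, 0.085) and TBX1 (-2.16, 0.067), of which SFTA3, LGR5, MSX2 and TBX1 were called under some alternatives. With the read-kind covariate 2 of the 18, GLI1 and PAX9, were called.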

How the results depend on the processing

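Of 177 named genes called, all kept direction and call under RLE, upper quartile and total-count scaling and the replicate block, and 172 to 176 when 1 of the 6 libraries was left out. With the read-kind covariate 57 held, 116 lost the call and 4 changed sign: HOXB1 (log2 -7.27), HOXC4 (-3.12), RARG (0.01) and AGER (-0.38). That covariate gave 473 calls (472 at 2-fold), 88 genes higher and 188 lower than each other day 9 group, and 2 interactions in place of 18, 1 of which, ID1, changed sign (0.03). Total-count scaling gave 2012 genes higher than each group, limma on log2(TPM + 1) 775 lower than each, and TOP2A a rise (0.31). The causes were not tested. Leaving out 1 library gave 7745 to 8571 calls, 2738 to 2916 at 2-fold, 998 to 1306 higher and 1038 to 1314 lower than each group, and 17 to 20 interactions. Numbers did not pair the libraries: same-number correlations of deviations were -0.11, -0.02 and 0.01, and the replicate block gave 8849 calls, 2800 at 2-fold, 1327 higher and 1317 lower than each group, and 18 interactions, 17 of them the same (CYP26A1 lost, adjusted p = 0.056; SFTA3 gained, 0.048). Leaving out 1 library moved 3 to 6 of 80 list counts by over 1.5 times. The read-kind covariate moved 72 of the 80, limma on log2(TPM + 1) 27 and a minimum count of 50 moved 12. Chosen after the data were seen, leaving out pseudogenes gave 8242 calls and leaving out untreated day 6 libraries 1 and 3 gave 9015. Depth limits genes with few counts, such as PDX1 and HOXB1.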
